A study of Homo sapiens with 6 samples.

Results

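The genes FGA, FGB and FGG encode the alpha, beta and gamma chains of fibrinogen, the soluble plasma protein that thrombin turns into the fibrin of a blood clot. All 3 genes were measured, among 14884 genes with a named row on the arrays, and each had a single row (Entrez gene identifiers 2243, 2244 and 2266). The genes were chosen by their measured levels in these same samples, so their levels and differences are given as a description, without a test.

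H9 is an established line of human embryonic stem cells, and total RNA of clones made from it was measured on 6 Affymetrix arrays, 2 for each of 3 groups. CTRL clones carried the lentiviral vector pHIV-EF1α-IRES-eGFP alone, gamma_ON clones the same vector with H2A.X S139E, and gamma_OFF clones the vector with H2A.X T136A and S139A. H2A.X is the histone variant whose phosphorylated form marks DNA breaks. In S139E a glutamate stands in the place of the phosphorylated serine, and the alanines of gamma_OFF cannot be phosphorylated. In every group the EF1α promoter drove the transgene, and transduced cells were sorted for GFP and the pluripotency antigen TRA 1-60. Single colonies were then grown on mouse embryonic fibroblasts with 8 ng/ml bFGF. No group carried added H2A.X without a substitution, so against CTRL an effect of the substitution and one of added H2A.X cannot be told apart. Gamma_ON and gamma_OFF both carried added H2A.X and differed in the substitutions, but its amount in each was not measured here. H2AX had no named row, so the transgene was not checked here. The labels do not say whether the 2 replicates of a group are separate clones or cultures, and the p-values therefore rest on a spread between arrays that may be technical.

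The arrays had similar medians over all rows, between 6.11 and 6.25 on the log2 scale. Replicates correlated across genes with Pearson's r of 0.994 in CTRL, 0.994 in gamma_ON and 0.986 in gamma_OFF. Gamma_OFF replicate 2 stood apart: its values had the narrowest spread over genes (SD 1.64, against 1.70 to 1.81 on the other arrays), and gamma_OFF replicate 1 correlated slightly better with gamma_ON replicate 2 (r = 0.987) than with it. Of 10 pluripotent stem cell markers 9 were measured, and their median level on each array lay between 10.4 and 10.7, above the array medians over genes of 7.09 to 7.14. Not all of them stood high. NANOG, the lowest on each array, ran from 6.26 in CTRL replicate 1 to 7.29 in gamma_OFF replicate 2. POU5F1 ran from 7.10 in CTRL replicate 1 to 8.05 in gamma_ON replicate 2.

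Fibrinogen is assembled in the endoplasmic reticulum from a pair of each chain, and all 3 chains are needed for secretion. Hepatocytes are its main source in the adult. The genes lie side by side and respond together to interleukin-6 in the acute phase, with C/EBP proteins among their known liver regulators. In the early embryo the visceral endoderm of the yolk sac makes many of the plasma proteins that the liver makes later.

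The upstream sequences of the 3 genes are shown because the genes stood high in the same samples and because C/EBP proteins and interleukin-6 signals are known to act through such sequence. They are the 250 bases before each RefSeq gene start on chromosome 4 of GRCh38.p14, written 5′ to 3′ on the gene's own strand: chr4:154590743-154590992 on the minus strand for FGA, chr4:154562730-154562979 on the plus strand for FGB, and chr4:154612657-154612906 on the minus strand for FGG. The table holds a second FGB window, with a start nearby, that was not used. Capitals mark matches, on either strand, to the C/EBP motif TTGCNNAA and the interleukin-6 type II element CTGGGA.
FGA: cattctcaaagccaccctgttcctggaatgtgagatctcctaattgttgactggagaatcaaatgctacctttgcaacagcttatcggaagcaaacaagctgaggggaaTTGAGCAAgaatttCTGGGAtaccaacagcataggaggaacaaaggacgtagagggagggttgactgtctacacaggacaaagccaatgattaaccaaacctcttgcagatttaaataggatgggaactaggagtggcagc
FGB: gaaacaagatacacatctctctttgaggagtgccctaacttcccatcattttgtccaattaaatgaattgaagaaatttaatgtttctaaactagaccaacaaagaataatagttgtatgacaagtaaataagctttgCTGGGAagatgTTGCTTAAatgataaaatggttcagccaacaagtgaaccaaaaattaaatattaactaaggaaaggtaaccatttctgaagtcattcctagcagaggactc
FGG: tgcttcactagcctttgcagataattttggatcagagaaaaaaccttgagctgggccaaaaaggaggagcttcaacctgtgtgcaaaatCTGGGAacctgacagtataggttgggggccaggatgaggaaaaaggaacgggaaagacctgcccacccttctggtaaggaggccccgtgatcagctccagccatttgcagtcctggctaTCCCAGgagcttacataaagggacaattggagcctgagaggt

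FGA and FGB held matches to both marked motifs, and FGG held only the interleukin-6 type II element. The C/EBP motif began at -141 in FGA and -101 in FGB, and 9.05% of 35116 upstream windows of this length in the RefSeq table held it. CTGGGA began at -127 in FGA and -112 in FGB. FGG held it at -161 and, on the other strand, at -42, and 28.7% of windows held it. The HNF4 motif CAAAG, present in 42.1% of windows, matched 4 times in FGA, 3 times in FGB and 1 time in FGG. The GATA motif AGATAA, in 9.17% of windows, matched only in FGG, at -232. The letters TATAAA (10.7% of windows) and the FOXA motif TGTTTAC (2.98%) were in none of the 3 windows. No motif overlapped another among the capitals. These are letter matches, and binding was not measured.

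FGA, the alpha chain whose cleavage by thrombin starts polymerisation, had log2 levels of 7.31 and 6.98 on the CTRL arrays, 10.19 and 10.32 on the gamma_ON arrays, and 7.46 and 7.07 on the gamma_OFF arrays. The gamma_ON arrays were high, and the CTRL and gamma_OFF arrays overlapped. The means were 7.15 ± 0.23 (SD, n = 2), 10.25 ± 0.09 and 7.26 ± 0.28. Among all genes on an array, the FGA row lay near the middle in CTRL and gamma_OFF, between the 47.0 and 59.5 percentiles, and at the 96.3 and 97.0 percentiles in gamma_ON.

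FGB, the beta chain, whose synthesis has been described as limiting for fibrinogen output in liver cells, had levels of 8.24 and 7.78 in CTRL, 10.14 and 10.22 in gamma_ON, and 7.31 and 7.21 in gamma_OFF. Here the 3 groups did not overlap, with gamma_ON highest, CTRL between and gamma_OFF lowest. The share of all genes whose groups do not overlap was not counted, so for this and the other genes a separation is only described. The means were 8.01 ± 0.32 (SD, n = 2), 10.18 ± 0.05 and 7.26 ± 0.07.

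FGG, the gamma chain, which carries a platelet integrin-binding site at its end, had levels of 4.74 and 4.84 in CTRL, 7.79 and 7.83 in gamma_ON, and 4.93 and 4.94 in gamma_OFF. Its row lay low among all genes in CTRL and gamma_OFF, between the 9.65 and 10.8 percentiles, and at the 64.5 and 66.4 percentiles in gamma_ON. The CTRL and gamma_OFF arrays were separated by a gap of only 0.09, with gamma_OFF above. A row's own level depends on its probes, so levels are not compared between the 3 genes.

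**Figure D1:**
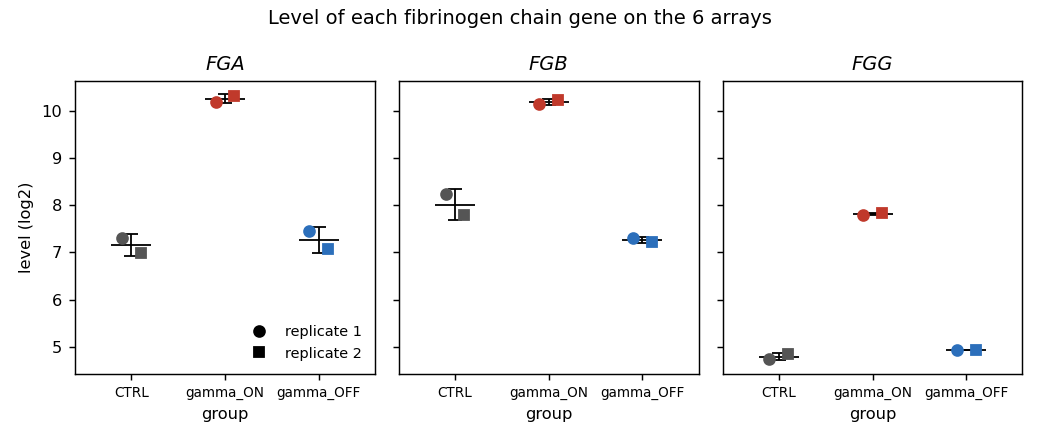
Log2 level (y axis) of each fibrinogen chain gene on the 6 arrays, by group (x axis). Points are arrays, horizontal lines are group means and bars are 1 SD (n = 2); the gamma_ON arrays of all 3 genes stand above every other array, and FGB is lower in gamma_OFF than in CTRL.

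Between gamma_ON and CTRL, all 3 chain genes stood high in gamma_ON, by differences among the 6 highest of 14884 genes. FGA stood 3.10 log2 units higher (limma SE 0.17, 8.60-fold, the 3rd highest difference), FGG 3.02 higher (SE 0.11, 8.11-fold, the 4th) and FGB 2.17 higher (SE 0.16, 4.51-fold, the 6th). The files used here hold no detection value, so it is unknown whether the low FGG row was above background in CTRL and gamma_OFF. Its fold against either group may therefore understate the difference, and its rank rests on that row. The lowest gamma_ON array lay above the highest CTRL array by 2.88 for FGA, 2.95 for FGG and 1.90 for FGB. The median difference over all genes was 0.02. Over the alternative settings the differences ranged from 2.94 to 3.27 for FGA, 2.92 to 3.07 for FGG and 1.94 to 2.40 for FGB. As this is bulk RNA, more cells of a type that makes fibrinogen and more RNA per cell cannot be told apart.

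All 3 chain genes also stood higher in gamma_ON than in gamma_OFF. FGA stood 2.99 higher (SE 0.17, 7.94-fold), FGB 2.92 higher (SE 0.16, 7.58-fold) and FGG 2.87 higher (SE 0.11, 7.33-fold). By measured values these were the 3rd, 4th and 5th highest differences of all genes, that of FGG with the limit above. This comparison shares the gamma_ON arrays with the one above, so the values stand side by side and neither supports the other.

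Between gamma_OFF and CTRL the chains stood differently. FGB stood 0.75 log2 units lower in gamma_OFF (difference -0.75, SE 0.16, 1.68-fold) and was the 324th lowest difference of 14884. FGA differed by 0.12 (SE 0.17), and without gamma_OFF replicate 1 the difference was -0.08, without CTRL replicate 2 -0.05. FGG differed by 0.15 (SE 0.11), and by -0.02 after quantile normalization, so neither had a settled direction. Leaving out gamma_OFF replicate 2, the array that stood apart, gave -0.70 for FGB, 0.31 for FGA and 0.14 for FGG. The size for FGB depended more on the CTRL arrays, at -0.52 without CTRL replicate 1 and -0.98 without CTRL replicate 2.

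**Figure D2:**
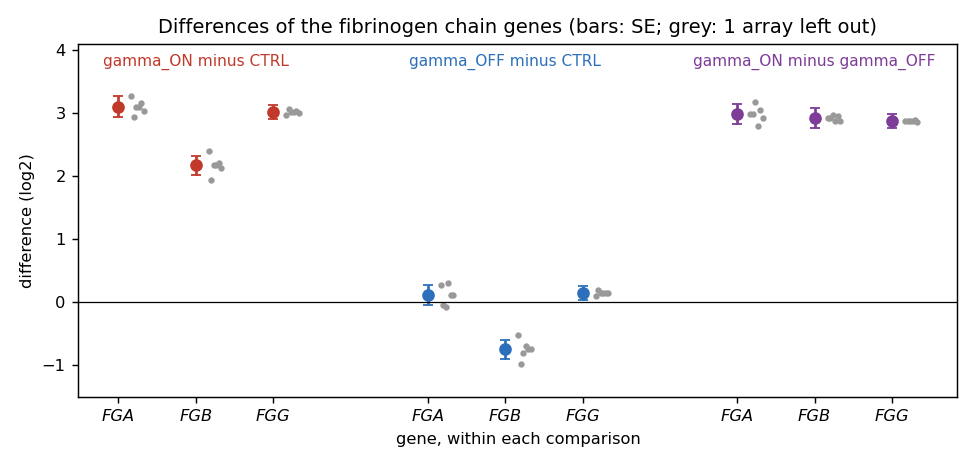
Log2 difference between groups (y axis) of FGA, FGB and FGG in each of the 3 comparisons (x axis), with bars of 1 limma SE; grey points are the differences with 1 array left out. The gamma_ON differences lie between 2.17 and 3.10, and between gamma_OFF and CTRL only FGB lies well away from 0, at -0.75.

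The difference between FGB and the other chains was also read within each array, which removes what all 3 genes share on it. Taken relative to the CTRL mean, FGB minus FGA was -0.91 and -0.96 on the gamma_ON arrays and -1.01 and -0.72 on the gamma_OFF arrays, against 0.07 and -0.07 on the CTRL arrays. FGB minus FGG was -0.87 and -0.82 in gamma_ON and -0.84 and -0.95 in gamma_OFF, against 0.28 and -0.28 in CTRL. FGB was thus lower relative to both other chains on the 4 arrays with an H2A.X transgene than on the 2 CTRL arrays. All 4 values are set against the same CTRL mean, so a shift of FGB on those 2 arrays would move them together, and the 2 groups are not independent. FGA minus FGG did not separate the groups, with 0.04 and 0.13 in gamma_ON, 0.17 and -0.23 in gamma_OFF, and 0.22 and -0.22 in CTRL. Over the 6 arrays Pearson's r was 0.993 between FGA and FGG, 0.959 between FGA and FGB and 0.949 between FGB and FGG, as a description of 3 groups in which gamma_ON sets most of the range.

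The genes on either side of the cluster did not share the pattern. In the RefSeq order TMEM131L, TLR2, RNF175, SFRP2 and PLRG1 come before FGB, FGA and FGG, and LRAT, RBM46, NPY2R and MAP9 after them, within 1 Mb. No other annotated gene lies between the chain genes. Of 10 protein-coding neighbours 9 were measured and 0 were called by limma in any of the 3 comparisons. Of all genes 0.739% to 6.08% were called in a given direction of a comparison, so this count does not by itself set the neighbours apart. At an unadjusted p under 0.05 there were 0 between gamma_ON and CTRL, 1 between gamma_OFF and CTRL (SFRP2, a secreted Wnt modulator) and 4 between gamma_ON and gamma_OFF (TLR2, RNF175, SFRP2 and LRAT). The share of all genes under that unadjusted cut is not given here, for the neighbours or for the lists below. Differences between gamma_ON and CTRL ran from -0.33 for LRAT, a retinol esterifying enzyme, to 0.26 for TMEM131L, with a median of 0.11. PLRG1, a splicing factor next to FGB, had levels of 9.27 and 9.29 in CTRL and 9.41 and 9.37 in gamma_ON. The neighbours' range was -0.35 to 0.27 between gamma_OFF and CTRL and -0.38 to 0.48 between gamma_ON and gamma_OFF.

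**Figure D3:**
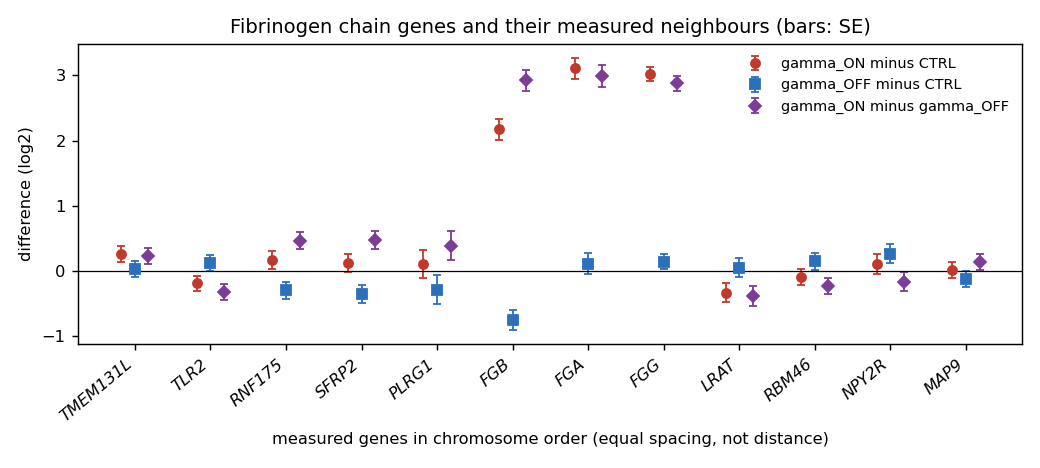
Log2 difference (y axis) in the 3 comparisons (colours) for the measured genes around the fibrinogen cluster, in their order along the chromosome with equal spacing (x axis), with bars of 1 limma SE. FGB, FGA and FGG stand at 2.17 to 3.10 between gamma_ON and CTRL, and the 9 neighbours between -0.33 and 0.26.

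The other genes of the fibrinogen pathway were taken from lists of coagulation, fibrinolysis, receptors, regulators and plasma proteins, with a gene called at a limma adjusted p under 0.05 over all genes. Between gamma_ON and CTRL 0.739% of all genes were called higher and 0.806% lower. Between gamma_OFF and CTRL the shares were 2.77% and 6.08%, and between gamma_ON and gamma_OFF 3.98% and 2.02%. Of 153 listed genes 84 were measured. Calls were also read with arrays left out and under other settings. Leaving out an array of the group not compared gives the same fit as one of only the 2 groups compared. Losses under these settings, here and below, are therefore a single result and do not show a dependence on that array. In gamma_ON against CTRL 6 of the 84 were called higher and 2 lower, and 4 kept their call with each array left out in turn. In gamma_OFF against CTRL 2 were called higher and 12 lower, of which 2 kept their call. Against gamma_OFF 18 were higher in gamma_ON and 0 lower, of which 5 kept it.

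Among clotting factors, 9 of 17 were measured and only KNG1, kininogen of the contact system, was called between gamma_ON and CTRL (0.73 higher, adjusted p = 0.0296 by limma). Its call was lost with any CTRL or gamma_ON array left out (highest adjusted p 0.266, without gamma_ON replicate 1), and its second row differed by -0.12. KNG1 was also called higher in gamma_ON than in gamma_OFF (0.56), which held only without gamma_OFF replicate 1. Averaging its rows ended both calls, and scaling the arrays to the same SD over genes (SD scaling), array weights or a fit of only the 2 groups compared ended the second. F2, prothrombin, whose active form cuts fibrinogen, had levels of 6.10 and 6.14 in CTRL and 6.41 and 6.40 in gamma_ON and was not called. None of the 9 was called between gamma_OFF and CTRL, nor at an unadjusted p under 0.05, which 0 of 9 passed.

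Of the anticoagulant list 6 of 12 were measured. None was called by limma between gamma_ON and CTRL (0 of 6, with 2 at an unadjusted p under 0.05). PROS1, protein S, was lower in gamma_OFF than in CTRL by a difference of -0.56 (adjusted p = 0.0431), and A2M, a broad protease inhibitor, by -0.84 (adjusted p = 0.0204). Without CTRL replicate 1 these adjusted p-values were 0.236 and 0.124, and neither call held without gamma_OFF replicate 2. PROS1 also lost its call with CTRL replicate 2 or any gamma_ON array left out. Against gamma_OFF, PROS1, A2M and TFPI, the inhibitor of the tissue factor pathway, were higher in gamma_ON by 0.87, 0.70 and 0.84. All 3 lost their calls with any gamma_ON array or gamma_OFF replicate 2 left out (highest adjusted p 0.127, 0.282 and 0.136, without gamma_ON replicate 1). Array weights ended the call of A2M here and that of PROS1 between gamma_OFF and CTRL. SD scaling or quantile normalization also ended the former, and a fit of only the 2 groups the latter.

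PLG, plasminogen, the precursor of the protease that dissolves fibrin, followed the gamma_ON levels of the chains. Its levels were 4.65 and 4.86 in CTRL, 6.42 and 6.20 in gamma_ON, and 4.98 and 5.15 in gamma_OFF. The gamma_ON arrays were high, with no overlap. In CTRL its row lay near the FGG levels of 4.74 and 4.84, and whether it was above background there is likewise unknown. PLG rose by 1.56 between CTRL and gamma_ON (SE 0.14, limma adjusted p = 0.000866, at most 0.0210 with an array left out) and was 1.25 higher in gamma_ON than in gamma_OFF (adjusted p = 0.00292, at most 0.0497). It was the only one of the 5 measured fibrinolysis genes of 13 called between gamma_ON and CTRL. S100A10, part of a plasminogen receptor, was lower in gamma_OFF than in CTRL by a difference of -0.61 (adjusted p = 0.0265, and 0.166 without CTRL replicate 1). That call held only without gamma_OFF replicate 1, and so did its call higher in gamma_ON than in gamma_OFF (0.51, adjusted p = 0.0499). A fit of only the 2 groups ended both calls, and SD scaling, quantile normalization or array weights ended the second.

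Of 11 fibrinogen receptor genes 2 were measured. ICAM1, an adhesion receptor that binds fibrinogen, had levels of 7.66 and 7.59 in CTRL, 6.76 and 6.54 in gamma_ON, and 6.47 and 6.61 in gamma_OFF. It fell in both H2A.X groups, which share the CTRL arrays, with a difference of -1.08 in gamma_OFF (adjusted p = 0.00453, at most 0.0375 with an array left out) and -0.97 in gamma_ON (adjusted p = 0.00800). The gamma_ON call was lost without CTRL replicate 1, CTRL replicate 2 or gamma_ON replicate 2 (highest adjusted p 0.0869, without gamma_ON replicate 2).

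Of 21 genes that share the fibrinogen-related domain 17 were measured, and limma called 0 between gamma_ON and CTRL, with 2 at an unadjusted p under 0.05 and a median of -0.02. FGL1 and FGL2, the fibrinogen-like proteins, differed by 0.14 and -0.14. The matrix protein gene TNC was lower in gamma_OFF than in CTRL by a difference of -1.30 (adjusted p = 0.00539, at most 0.0337 with an array left out). Its levels were 9.64 and 9.18 in CTRL, 9.21 and 9.05 in gamma_ON, and 8.17 and 8.05 in gamma_OFF. The list's median between gamma_ON and gamma_OFF was -0.17, with 4 of 17 differences above 0. At an unadjusted p under 0.05 there were 4 higher and 4 lower, the latter being FGL2 and the ficolins FCN1, FCN2 and FCN3. Limma called TNC (1.02), MFAP4 (0.67), ANGPT1 (0.54) and ANGPT2 (0.48) higher in gamma_ON than in gamma_OFF. Each of these 4 calls was lost with any gamma_ON array left out, and the adjusted p-values were 0.173, 0.282, 0.292 and 0.312 when it was replicate 1. Those of TNC, ANGPT1 and ANGPT2 were also lost without gamma_OFF replicate 2, and those of MFAP4, ANGPT1 and ANGPT2 with any CTRL array left out. Array weights or a fit of only the 2 groups also ended these last 3, and SD scaling or quantile normalization those of MFAP4 and ANGPT2.

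Among regulators, 10 of 20 liver and endoderm transcription factors were measured, and limma called 0 between gamma_ON and CTRL, with 1 at an unadjusted p under 0.05. FOXA1 had levels of 6.45 and 6.05 in CTRL and 6.77 and 6.46 in gamma_ON, a difference of 0.36. FOXA2 and FOXA3 differed by 0.08 and 0.14. HNF4A, CEBPA and CEBPB, regulators of liver genes, had no named row and were not analysed here. TBX3 was lower in gamma_OFF than in CTRL by a difference of -0.75 (adjusted p = 0.0252) and GATA6 by -0.56 (adjusted p = 0.0433). Without CTRL replicate 1 these were 0.149 and 0.218, and both calls were also lost with any gamma_ON array left out. TBX3 lost its call without gamma_OFF replicate 2 too, and GATA6 without gamma_OFF replicate 1 or CTRL replicate 2. A fit of only the 2 groups ended both calls, and SD scaling, quantile normalization or array weights that of GATA6. Against gamma_OFF, TBX3 (1.19) and GATA6 (0.86) were higher in gamma_ON, with calls lost when any gamma_ON array was left out (highest adjusted p 0.0919 and 0.185) and that of GATA6 also after quantile normalization.

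The interleukin-6 pathway, the known inducer of the chains, had 9 of 15 genes measured, and limma called 0 between gamma_ON and CTRL, with 1 at an unadjusted p under 0.05. STAT3, its transcription factor, had levels of 10.01 and 9.91 in CTRL, 9.99 and 9.95 in gamma_ON, and 9.83 and 9.62 in gamma_OFF. IL6R, the ligand-binding receptor, differed by -0.16 between gamma_ON and CTRL. IL6ST, the signalling receptor, had no named row. Called lower in gamma_OFF than in CTRL were 4 genes: the receptors LIFR (-0.89, adjusted p = 0.00851) and OSMR (-0.61), the ligand LIF (-0.54) and the kinase JAK1 (-0.48). Without CTRL replicate 1 the adjusted p of LIFR was 0.0682, and the other 3 also lost their calls there and without CTRL replicate 2. JAK1 and LIF also lost theirs with gamma_OFF replicate 2 or any gamma_ON array left out, and LIF without gamma_OFF replicate 1. Array weights or a fit of only the 2 groups ended the calls of JAK1 and LIF, and SD scaling or quantile normalization that of JAK1. Against gamma_OFF, LIFR (0.95) and OSMR (0.65) were higher in gamma_ON, with both calls lost when any gamma_ON array was left out. That of OSMR was also lost with only the 2 groups in the fit, which is the same fit as with a CTRL array left out.

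Acute-phase and other liver plasma proteins, with 18 of 26 measured, were the largest measured list. In gamma_ON against CTRL it held 5 of the 8 called list genes, 4 higher and 1 lower. AHSG, fetuin-A, had levels of 6.38 and 5.86 in CTRL, 9.49 and 9.56 in gamma_ON, and 6.80 and 6.72 in gamma_OFF. It rose by 3.41 (SE 0.17, limma adjusted p = 2.44e-05). ITIH2, a hyaluronan-binding plasma inhibitor chain, rose by 1.80 (SE 0.12, adjusted p = 0.000191), from 5.53 and 5.66 in CTRL to 7.37 and 7.42 in gamma_ON. VTN, vitronectin, an adhesive plasma protein, rose by 1.74 (SE 0.15, adjusted p = 0.000755), from 7.83 and 7.45 to 9.41 and 9.35. These 3 calls held with each array left out. TTR, a carrier of thyroid hormone, rose by 1.38 (adjusted p = 0.00516), but without gamma_ON replicate 1 or 2 the adjusted p was 0.0568 or 0.0746. C3, the central complement component, was lower by a difference of -0.74 (adjusted p = 0.0299), a call that did not hold with any CTRL or gamma_ON array left out (highest 0.275, without CTRL replicate 2) or after quantile normalization. Genes of this list that were not called include ALB, albumin, with levels of 5.67 and 5.65 in CTRL and 6.20 and 6.11 in gamma_ON (difference 0.49, adjusted p = 0.0763), and TF, transferrin, with a difference of 0.09. Nor were SAA1 (-0.30), HP (0.24), HPX (0.27), ORM1 (0.40), ORM2 (0.40), CP (0.33) and LBP (0.05) called. The list's median was 0.27, against 0.02 over all genes. The list was not split by the direction in which its genes change in the acute phase. Neither its calls nor its median therefore measure that response.

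Of these 18 plasma protein genes 2 were called higher and 1 lower in gamma_OFF than in CTRL. AHSG was 0.65 higher (adjusted p = 0.0464) and ITIH2 0.59 higher (adjusted p = 0.0214), with adjusted p-values of 0.270 without CTRL replicate 2 for AHSG and 0.147 without CTRL replicate 1 for ITIH2. The call of AHSG held only without CTRL replicate 1, and that of ITIH2 was also lost without CTRL replicate 2 or gamma_OFF replicate 2. SD scaling, quantile normalization, array weights or a fit of only the 2 groups also ended the call of AHSG. TTR was lower by a difference of -0.96 (adjusted p = 0.0144, and 0.0870 without CTRL replicate 1), a call that SD scaling or quantile normalization also ended. Its levels had the order of those of FGB, with gamma_ON at 11.66 and 11.80, CTRL at 10.60 and 10.11, and gamma_OFF at 9.30 and 9.48. Against gamma_OFF, AHSG (2.76), TTR (2.34), VTN (1.69) and ITIH2 (1.21) were higher in gamma_ON, and these calls held with each array left out.

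The list of secretory pathway chaperones and transport genes had 8 of 18 genes measured, and limma called 0 in the 3 comparisons. At an unadjusted p under 0.05 there were 1 between gamma_ON and CTRL, 0 between gamma_OFF and CTRL and 2 between gamma_ON and gamma_OFF. Their median difference between gamma_ON and CTRL was 0.07.

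**Figure D4:**
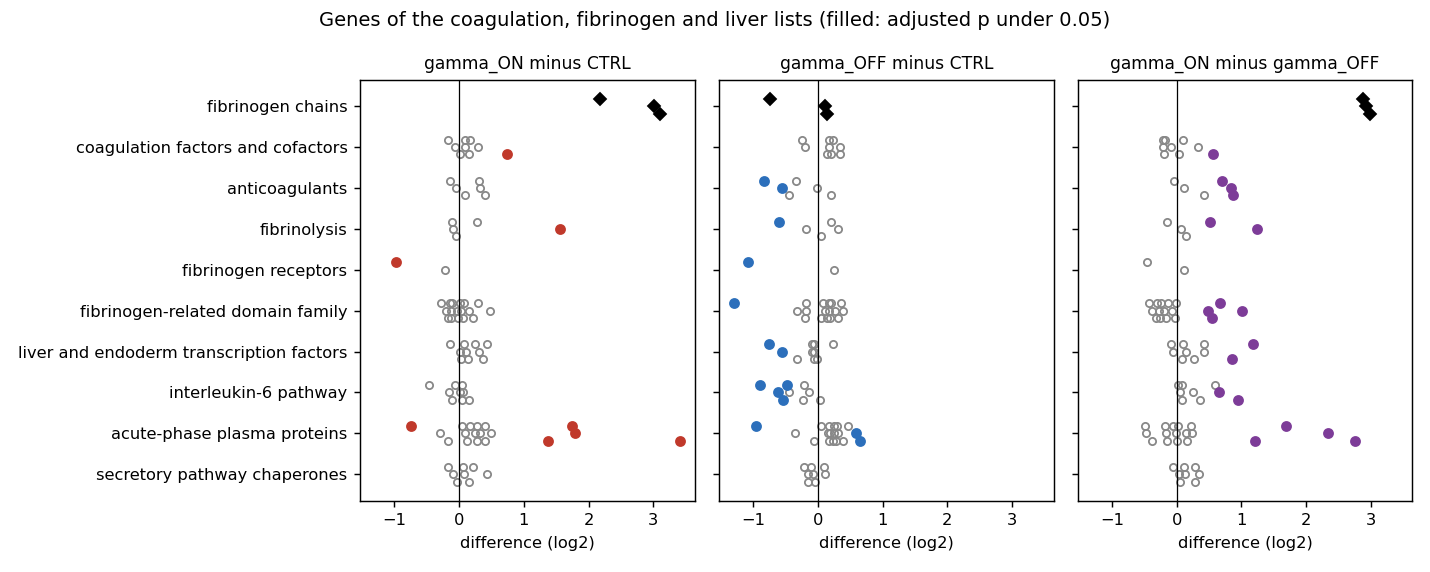
Log2 difference of each measured list member (points, x axis) by list (rows) and comparison (panels); filled points are called by limma at an adjusted p under 0.05, and black diamonds are the 3 chain genes, given without a test. In the gamma_ON against CTRL panel, 4 of 18 genes of the list of acute-phase and other plasma proteins were called higher (AHSG, ITIH2, VTN and TTR) and 1 lower (C3).

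Markers of cell types that make plasma proteins moved with the chain genes in part. Of 12 visceral and yolk sac endoderm markers 9 were measured, and their mean level lay between 9.15 and 9.27 in gamma_ON, 7.77 and 8.07 in CTRL, and 7.67 and 7.69 in gamma_OFF. Called higher in gamma_ON than in CTRL were 5 (3 to 5 with an array left out) and 0 lower. AFP, the fetal plasma protein related to albumin, rose by 4.37 (adjusted p = 2.54e-06), APOB by 2.38 (0.000254) and APOC3 by 1.68 (0.000625), all 3 with each array left out. TTR, which both lists hold, and APOA2 (1.11, adjusted p = 0.0186, and 0.145 without gamma_ON replicate 2, lost also without gamma_ON replicate 1 or CTRL replicate 2) were the others. The 4 markers not called between gamma_ON and CTRL were CUBN (0.38), APOA1 (0.20), FOXA2 (0.08) and SOX17 (0.02). AFP was 1.02 higher in gamma_OFF than in CTRL (adjusted p = 0.00743, and 0.0558 without CTRL replicate 2), while APOA2 (-1.24, adjusted p = 0.00731) and TTR were lower. Against gamma_OFF 6 of the 9 were called higher in gamma_ON (5 to 6 with an array left out).

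The definitive endoderm list had 9 of 10 genes measured, with means of 7.41 to 7.54 in CTRL, 7.65 to 7.66 in gamma_ON and 7.30 to 7.39 in gamma_OFF. Between gamma_ON and CTRL, limma called EOMES higher (1.18, adjusted p = 0.00294) and CXCR4 lower (-0.62, adjusted p = 0.0398). The call of EOMES was lost without gamma_ON replicate 1, and that of CXCR4 with any CTRL or gamma_ON array left out. Against gamma_OFF 2 of the 9 were called higher in gamma_ON and 0 lower. These were GATA6, with the limits above, and EOMES (1.64, limma adjusted p = 0.000342). The EOMES difference ran from 1.55 to 1.72 with an array left out. Of 12 mature hepatocyte markers 3 were measured, with means of at most 6.12 in CTRL, 6.35 to 6.38 in gamma_ON and 6.37 to 6.39 in gamma_OFF, and limma called 0 (1 and 2 of them at an unadjusted p under 0.05 in gamma_ON and gamma_OFF against CTRL). The 5 measured megakaryocyte and platelet markers, of cells that store fibrinogen, had means of 6.31 to 6.35 in CTRL, 6.33 to 6.41 in gamma_ON and 6.55 to 6.68 in gamma_OFF. PPBP was called higher in gamma_OFF than in CTRL (0.55, adjusted p = 0.0441), a call lost with each array left out in turn (at most 0.201) and under 5 of the other settings. The 4 measured genes of the fibroblast list had means of 8.04 to 8.19, 8.20 to 8.25 and 7.74 to 7.88 in the same order of groups. The rows are of human genes and the feeders were mouse cells, so these levels cannot be read as an amount of feeder cells. Binding of mouse RNA to these probes was not tested. TAGLN was called lower in gamma_ON than in CTRL (-0.62, adjusted p = 0.0304) and in gamma_OFF (-0.55, adjusted p = 0.0235), with 0.243 and 0.143 without CTRL replicate 2. The first call was lost with any CTRL or gamma_ON array left out. The second held only without gamma_OFF replicate 1 and was also ended by SD scaling, quantile normalization or a fit of only the 2 groups. LUM and DCN, matrix proteoglycan genes, differed the other way in gamma_ON against CTRL, by 0.86 (adjusted p = 0.0789) and 0.43 (limma's unadjusted p = 0.0156), without a call. LUM was called higher in gamma_ON than in gamma_OFF (1.10, adjusted p = 0.0260), and the call was lost with any gamma_ON array or gamma_OFF replicate 2 left out (highest 0.194) and with SD scaling, quantile normalization or array weights. Of the pluripotent markers POU5F1 was called 0.71 higher in gamma_ON than in CTRL (adjusted p = 0.0441), a call lost with any CTRL or gamma_ON array left out (highest 0.283) and with SD scaling or quantile normalization. DNMT3B was called 0.46 higher in gamma_OFF than in CTRL (adjusted p = 0.0489), which held only without gamma_OFF replicate 1 among left-out arrays (highest 0.211) and was ended by array weights or a fit of only the 2 groups. The part of any of these cell types in the levels of the chain genes was not tested.

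The genes most like the chains were ranked by Pearson's r over the 6 arrays with the mean of the 3 centred chain profiles, among 242 genes whose group means spanned at least 1 log2 unit; 20 of them had r above 0.95. Because gamma_ON sets most of the range, any gene high in gamma_ON ranks well. The first was HAVCR1, a membrane receptor of injured kidney tubules (r = 0.995), with levels of 4.99 and 4.73 in CTRL, 6.90 and 6.97 in gamma_ON, and 4.90 and 4.43 in gamma_OFF. GDF3, a TGF-beta family ligand of pluripotent cells, followed (r = 0.993), with 7.05 and 6.77 in CTRL, 9.05 and 8.73 in gamma_ON, and 6.91 and 6.79 in gamma_OFF. Both were high in gamma_ON alone, with CTRL and gamma_OFF overlapping. The HAVCR1 row lay low in CTRL and gamma_OFF, and whether it was above background there is unknown. VTN (0.992), DPP4, a cell-surface peptidase (0.990), APOB, the apolipoprotein of low-density lipoprotein (0.989), and the long noncoding RNA LINC02381 (0.988) came next. AHSG (0.973), D21S2088E (0.971), EOMES, a T-box factor (0.969), and APLNR, the apelin receptor (0.969), completed the 10. APOB resembled FGB in that gamma_OFF lay below CTRL, at 7.46 and 7.65 against 8.27 and 7.81, a difference of -0.48 that was not called (adjusted p = 0.0865).

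**Figure D5:**
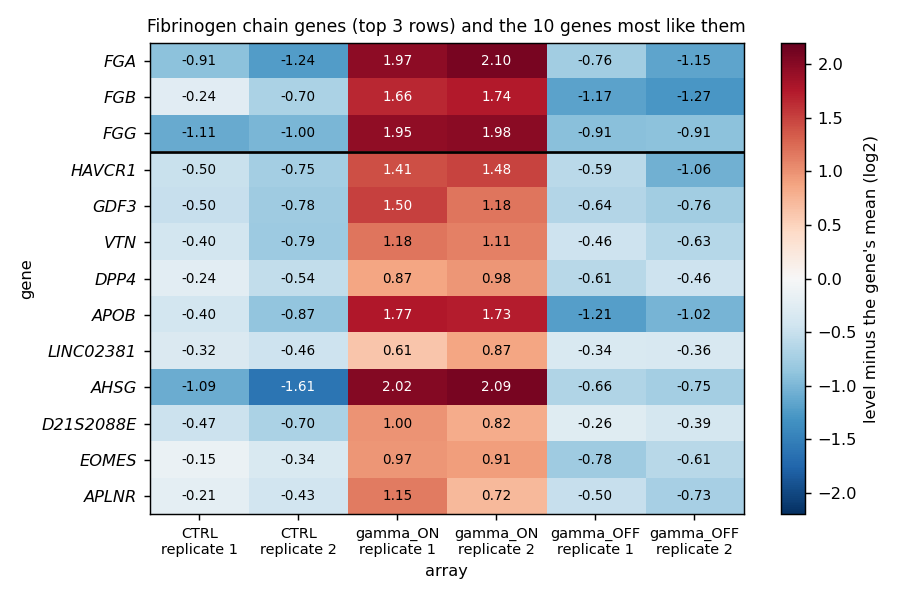
Log2 level minus the gene's mean over the 6 arrays (colour and printed value) for FGA, FGB, FGG and the 10 genes most like them (vertical axis) on each array (horizontal axis). All 13 rows are highest in gamma_ON, and FGB is lower in gamma_OFF than in CTRL, with the arrays of the 2 groups apart.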

How the data were processed

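The value table held log2 expression levels deposited by the authors, 1 column per array; RMA and Partek 6.6 are the tools in the submitters' processing notes. How they were combined, and with which build, is not given in the sources used here. Of 53617 rows, 16098 were paired with 1 gene symbol by the platform annotation, 0 with several, and 37519 are unnamed here. All 16098 gene identifiers matched RefSeq (GRCh38.p14). For 779 genes with several rows the brightest was used.

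One fit over all 6 arrays was made with limma 3.58.1 (lmFit, eBayes) in R 4.3.3, with 3 residual and 6.05 prior degrees of freedom, two-sided tests and Benjamini-Hochberg adjustment over all 14884 genes. With 2 arrays a group the smallest p of a two-sided exact test is 0.333, and no such test was run. The number of arrays limits the precision. The limma fit was tested on simulated data, and the other steps were not.

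The chain genes, the lists and the tests were chosen with earlier results of these data known. Named are the chain genes, their neighbours within 1 Mb, and regulators of the liver and interleukin-6 pathways. So are up to 4 called genes per list and comparison and the 10 genes most alike. Added after their values were seen were C3, APOA2, ALB, F2, TF, DCN, FGL1, FGL2, FCN1, FCN2 and FCN3. The same holds for NANOG, SAA1, HP, HPX, ORM1, ORM2, CP, LBP, APOA1, CUBN and SOX17. Alternatives varied the spread model, array weights, the arrays in the fit, the replicate block, dim genes, scaling, normalization and left-out arrays. Some regulators, and sequence matches for them, are not reported here.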

Additional observations from a re-analysis of the deposited data

How the results depend on the processing

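Only SD scaling and quantile normalization could test the differences of the chain genes: the other settings leave a difference of 2 means as it is, and leaving out 1 of 2 arrays shifts it by less than 1 SD by construction. Of the 18 values under those 2 settings, 11 moved by less than 1 SD between replicates and 7 by more. The 7 were between gamma_OFF and CTRL FGG at 0.050 with arrays scaled to the same SD and -0.024 after quantile normalization, between gamma_ON and CTRL FGG at 2.92 after quantile normalization, and between gamma_ON and gamma_OFF FGB at 2.82 and 2.81 and FGG at 2.92 and 2.94 under the same 2 settings. Each chain gene had 1 row, so averaging rows could not change it, and leaving out dim genes removed FGG. The counts of called genes moved more. Between gamma_ON and CTRL 230 became 803 with array weights, 381 with trend and robust fitting, 487 with only those 2 groups, and 34 to 487 with an array left out. Between gamma_OFF and CTRL 1317 became 767 with weights, 567 with 2 groups, and 131 to 3515 with an array left out. Between gamma_ON and gamma_OFF 892 became 443 when scaled, 469 after quantile normalization, 1495 without dim genes, 229 with weights, 1596 with trend, 275 with 2 groups, and 49 to 4061 with an array left out. Called list members were 8, and 3 without dim genes (4 to 9 with an array left out), between gamma_ON and CTRL; 14, and 9 without dim genes, 9 with weights and 7 with 2 groups (3 to 17), between gamma_OFF and CTRL; and 18 (5 to 26) between gamma_ON and gamma_OFF. Fewer genes are tested without dim genes; the cause of the other moves was not tested. Same-numbered replicates did not visibly deviate together (correlations -0.10, -0.07 and 0.09). The labels do not say whether same-numbered samples were handled as pairs, and these correlations cannot settle it. With the replicate block 210, 1245 and 871 genes and 8, 13 and 17 list members were called, and the chain genes' differences were as without it. The block ended the calls of GATA6 and DNMT3B between gamma_OFF and CTRL, CXCR4 between gamma_ON and CTRL and ANGPT2 between gamma_ON and gamma_OFF.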
